A study of Mus musculus with 6 samples.

Results

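Signalling by TGF-β is limited by genes that act against it at several levels, and 10 of these were followed in A20 cells, a B lymphoma line from a BALB/c mouse. They are the inhibitory Smads Smad7 and Smad6, the nuclear corepressors Skil, Ski, Tgif1 and Tgif2, the ubiquitin ligases Smurf1 and Smurf2, and the membrane proteins Ldlrad4 and Pmepa1. They were chosen by symbol for their known roles, with earlier results of these data known. A probe set was taken as theirs when the platform annotation gave it their symbol alone. That was the case for 22 of 45101 probe sets and 10 of 18194 genes. Affymetrix whole-genome mouse arrays were run on 6 samples, 1 array for each of 6 conditions, so no condition had a replicate. Cells with DMSO, the drug's solvent, had 0 h, 12 h or 24 h of TGF-β. Cells with the JNK inhibitor SP600125 had the same 3 times of TGF-β. The drug was present for 24 h in unstimulated cells, for 12 h with 12 h of TGF-β and for 24 h with 24 h of it, so the drug-alone array does not match the 12 h array in time with the drug. Doses of both agents were not given in the sources used here. The series was designed to find genes induced by TGF-β and, among them, those whose induction needs JNK activity.

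TGF-β binds a pair of receptor kinases that phosphorylate Smad2 and Smad3, which enter the nucleus with Smad4 and switch on target genes. Smad7 and Smad6 compete for the receptors and bring Smurf ligases to them, Ldlrad4 and Pmepa1 keep Smad2 and Smad3 from the receptor, and Ski, Skil and the Tgif proteins bind Smads in the nucleus and recruit histone deacetylases. Several of these genes are themselves direct Smad targets, which makes them a feedback loop and a readout of it. In B cells TGF-β restrains growth and directs class switching to IgA.

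Of 10 B cell markers listed 9 were found, and all of these, Cd79a, Cd79b, Ms4a1, Pax5, Cd22, Ptprc, Blk, Ebf1 and Cd74, were above the floor on all 6 arrays. The floor, a signal of 74.2, is the median of all signals, and values under it were set to it. Their summed signal was lower with SP600125 in all 3 pairs, at 52641 against 73790 with no TGF-β, 67036 against 85871 at 12 h and 68154 against 93333 at 24 h, and higher with TGF-β than without it in both arms. The part of this in the results was not tested. Of 5 T cell markers 0 were above the floor on all arrays and 2 on any, with summed signals of 77.0 to 278.9, and Cd3g, Cd3d and Cd4 never passed it. Fibroblast markers, 5 found, had 0 above the floor on all arrays and sums of at most 423.8. The list taken for erythroid cells had 3 found, Hba-a1, Alas2 and Pf4, with 0 above the floor on all arrays and sums of at most 153.4. Only Pf4, a platelet gene, passed the floor on any array. Of 5 myeloid markers, whose sums were 616.3 to 955.3, 2 were above it throughout. The array of 24 h of TGF-β with SP600125 stood apart, with an 18S ribosomal RNA signal of 5878 against 506.5 to 881.5 on the other 5 and an actin 3′/5′ ratio of 1.89 against 1.25 to 1.51. On the other arrays the 18S signal was 506.5 and 637.7 without TGF-β and 846.6 to 881.5 with it. The actin ratio was higher with SP600125 than with DMSO in all 3 pairs, at 1.51 against 1.25 with no TGF-β, 1.32 against 1.29 at 12 h and 1.89 against 1.25 at 24 h, and so was the Gapdh ratio, at 0.88 against 0.79, 0.80 against 0.78 and 0.98 against 0.78. The part of these differences in the TGF-β and drug effects below was not tested.

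TGF-β raised 4 of the 9 measured members at 12 h and 5 at 24 h, and lowered 0. Smad7, Skil, Ldlrad4 and Smurf2 rose at both times and Tgif1 at 24 h. Each time was compared with 0 h in limma by an additive model over the 6 arrays, so each effect is the mean of 2 pairs of arrays, 1 with and 1 without SP600125. Genes were called where the adjusted p (Benjamini-Hochberg, over all 11731 genes tested) was under 0.05. Of those genes 2.6% were called higher and 2.37% lower at 12 h, and 9.07% and 7.5% at 24 h. The median effect over the 9 members tested was 0.46 on the log2 scale at 12 h and 0.54 at 24 h, against 0.02 and 0.07 over all genes tested. Smad6 was under the floor on every array and was not tested. With 1 array per condition, the only error available is how far arrays depart from the sum of a TGF-β and a drug effect. A p-value here measures that spread and no other, with any true interaction counted as error. For each gene limma draws the spread toward that of genes of like signal, with 2 residual degrees of freedom beside a prior of 5.97. When either 24 h array was left out, limma called 0 genes of the whole table at 12 h, at 24 h or for the drug. At an unadjusted p under 0.05 there were then 2323 genes at 12 h and 2600 at 24 h without the DMSO array, and 2332 and 2645 without the SP600125 array.

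**Figure D1:**
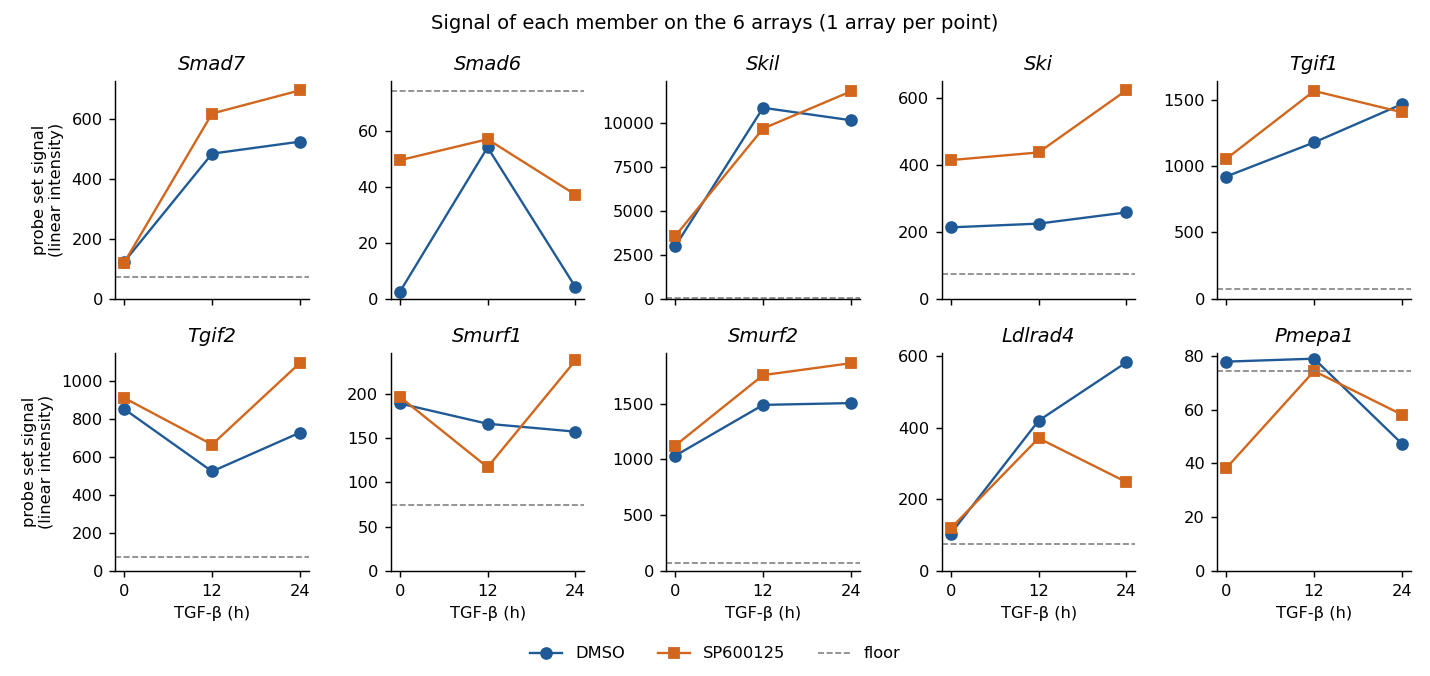
Signal of the brightest probe set of each of the 10 members (linear intensity, axis from 0) against hours of TGF-β, with 1 array per point, circles for DMSO, squares for SP600125 and a dashed line at the floor of 74.2. Smad7, Skil and Smurf2 climb in both arms, Ski is apart between the arms at every time, and Smad6 stays under the floor.

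Of the inhibitory Smads, Smad7 had a signal of 123.6 in untreated cells and 121.1 with SP600125 alone, 485.1 and 619.2 at 12 h of TGF-β without and with the drug, and 525.2 and 696.6 at 24 h. All 4 stimulated arrays lay above both unstimulated ones, and at both times the higher value was the one with SP600125. In limma it rose by a log2 of 2.16 ± 0.23 (SE) at 12 h, a 4.48-fold effect with a Benjamini-Hochberg adjusted p of 0.00384, and by 2.31 ± 0.23 at 24 h, a 4.94-fold effect with an adjusted p of 0.00161, higher in 2 of 2 pairs each time. Without the array of 24 h with SP600125 its 24 h effect was 2.18 ± 0.30 with an adjusted p of 0.135, and with each array left out in turn it ran from 1.96 to 2.37 at 12 h, called in 0 of 6 fits, and from 2.10 to 2.51 at 24 h, called in 4 of 6, all but those without a 24 h array. Ranked by effect it was number 17 of 11731 genes at 12 h and number 34 at 24 h. The other Smad7 probe set read 42.6, 139.1 and 220.4 at 0 h, 12 h and 24 h without the drug and 68.1, 320.2 and 206.5 with it. Both its unstimulated values were under the floor, so its changes are bounds: at least 2.97-fold without the drug and at least 2.78-fold with it at 24 h. At 12 h it was 2.30-fold higher with the drug than without it, and at 24 h 1.07-fold lower. Fitted on its own among all probe sets, it rose at 24 h by 1.52 ± 0.36 with an adjusted p of 0.0278 in limma, and at 12 h it was at 1.51 with an adjusted p of 0.0614.

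Smad6, the inhibitory Smad that acts mainly on the BMP branch, had 1 probe set, with signals of 2.4, 54.1 and 4.2 at 0 h, 12 h and 24 h without the drug and 49.5, 57.0 and 37.2 with it. All 6 are under the floor, so no order among them can be read. The annotated gene begins at base 64022085, upstream of the start that its RefSeq promoter window is set on, so that start lies inside the gene. The region around the window's start is shown because it holds the Smad palindrome GTCTAGAC, in capitals, which spans bases −4 to 4 from it (no base 0). The stretch is at chr9:64022045-64022074 of GRCm38.p6, minus strand.
Smad6 start: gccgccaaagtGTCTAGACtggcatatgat
The palindrome reads the same on both strands, overlaps no other motif searched, and is in 70 of 32851 RefSeq promoter windows of 300 bases, or 0.213%. A match is a description of the letters, and here it stands beside a transcript that was not above the floor with or without TGF-β.

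Among the corepressors, Skil, which encodes SnoN, had the smallest error of the members that rose at 12 h. Its signal was 2986.9 in untreated cells and 3568.0 with SP600125 alone, 10869.8 and 9688.7 at 12 h without and with the drug, and 10159.0 and 11804.3 at 24 h. The 4 stimulated values did not overlap the 2 unstimulated ones, and the 2 arms crossed, with DMSO higher at 12 h and SP600125 higher at 24 h. It rose by 1.65 ± 0.12 at 12 h and 1.75 ± 0.12 at 24 h, effects of 3.14-fold and 3.35-fold with limma Benjamini-Hochberg adjusted p of 0.000793 and 0.000323, higher in 2 of 2 pairs at each time. The other Skil probe set rose by 1.92 ± 0.19 and 2.01 ± 0.19 when fitted among all probe sets, with signals of 270.9, 1129.2 and 1046.1 without the drug and 233.4, 804.1 and 981.3 with it. The pair of Skil probe sets thus moved alike, at signals above the floor on every array. Without the array of 24 h with SP600125 the brighter one was at 1.66 ± 0.18 at 24 h with an adjusted p of 0.135, and of the 6 fits with 1 array left out 2 called Skil at 12 h, those without an unstimulated array, and 4 at 24 h, those with both 24 h arrays.

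Ski, the founding member of the same family, was not called for TGF-β but rose with SP600125. Its signal was 213.1, 224.3 and 257.8 at 0 h, 12 h and 24 h without the drug and 413.8, 436.6 and 622.2 with it, so that the lowest value with the drug was above the highest without it. The drug effect averaged over the 3 TGF-β states was 1.06 ± 0.19, or 2.09-fold, with a limma Benjamini-Hochberg adjusted p of 0.0155 and higher in 3 of 3 pairs, by 1.94-fold, 1.95-fold and 2.41-fold. The other Ski probe set read 191.8, 171.7 and 180.6 without and 269.7, 345.8 and 361.2 with the drug, again with no overlap, and its effect of 0.83 ± 0.22 had an adjusted p of 0.07 among all probe sets. Ski was the only one of 9 members called for SP600125 where 3.99% of all genes rose and 3.69% fell. With 1 array left out it ran from 0.96 to 1.12 and was called in 0 of 6 fits, with adjusted p from 0.105 to 0.235. Its drug effect without the array of 24 h with SP600125 was 0.96 ± 0.21 with an adjusted p of 0.235, in a fit that called no gene for the drug, with 1884 at an unadjusted p under 0.05.

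Ski had log2 TGF-β effects of 0.08 ± 0.23 at 12 h and 0.43 ± 0.23 at 24 h, the latter with a limma adjusted p of 0.243. In this family of corepressors TGF-β was therefore called for Skil and the drug for Ski, but the difference between the 2 genes was not itself tested. The stretch before the Ski start is shown as the one member promoter whose gene was called for the drug, at chr4:155222536-155222785 of GRCm38.p6, minus strand, with the GC-rich Smad site GGCGCC in capitals.
Ski promoter: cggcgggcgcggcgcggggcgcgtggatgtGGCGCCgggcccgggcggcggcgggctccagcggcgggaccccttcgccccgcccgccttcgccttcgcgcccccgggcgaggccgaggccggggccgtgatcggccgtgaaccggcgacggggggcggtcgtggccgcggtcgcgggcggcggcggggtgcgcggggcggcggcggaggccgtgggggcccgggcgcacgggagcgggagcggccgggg
The 300-base Ski window is 85.3% G and C, and its 1 match, at 220 bases before the start, is to a motif found in 11.9% of windows. No AP-1 site, TGANTCA, which is in 7.81% of windows, and no CRE, TGACGTCA, which is in 1.79%, was found in it on either strand, and this says only that these letters are not in this window.

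Tgif1 and Tgif2 are homeodomain corepressors that bind Smad2 and Smad3, and their signals went different ways at 12 h. Tgif1 read 921.2, 1177.9 and 1466.0 at 0 h, 12 h and 24 h without the drug and 1054.3, 1565.7 and 1405.1 with it, all 4 stimulated values above the unstimulated ones. It rose at 24 h by 0.54 ± 0.15, a 1.46-fold effect just past the threshold with a limma Benjamini-Hochberg adjusted p of 0.048. At 12 h it was at 0.46 ± 0.15 with an adjusted p of 0.13. Fitted among all probe sets, Tgif1 was not called at 24 h, with a limma adjusted p of 0.0534. With arrays scaled to 1 median it was at 0.41 with an adjusted p of 0.126, and without the array of 24 h with SP600125 at 0.72 with 0.151. No fit with 1 array left out called Tgif1, and it had no other probe set.

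Tgif2 read 852.4, 524.1 and 728.3 without the drug and 911.0, 665.4 and 1095.2 with it, lowest at 12 h in both arms. Its effect of −0.58 ± 0.18 at 12 h had a limma adjusted p of 0.112, and that of 24 h against 12 h, 0.60 ± 0.18, had 0.18, so neither passed, while at 24 h it was at 0.02 ± 0.18, or −0.11 with arrays scaled to 1 median and −0.17 ± 0.20 without the array of 24 h with SP600125. The other Tgif2 probe set read 219.8, 191.6 and 180.3 without and 266.8, 126.3 and 144.3 with the drug, and was not back at its 0 h value at 24 h, where its effect was −0.59 ± 0.30 against −0.64 ± 0.30 at 12 h. The 2 probe sets thus disagree at 24 h, and most on the array of 24 h with SP600125, at 1095.2 against 911.0 on the brighter probe set and 144.3 against 266.8 on the dimmer one, each given as that array against the drug alone.

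The ubiquitin ligases Smurf1 and Smurf2 mark receptors and Smads for degradation. Smurf2 read 1033.9, 1489.8 and 1505.9 without the drug and 1124.9, 1756.8 and 1863.8 with it, with every stimulated array above the unstimulated ones and SP600125 above DMSO at each time. It rose by 0.59 ± 0.13 at 12 h and 0.64 ± 0.13 at 24 h, higher in 2 of 2 pairs. These effects of 1.5-fold and 1.55-fold had limma Benjamini-Hochberg adjusted p of 0.0427 and 0.0149. Fitted among all probe sets, the same probe set had limma adjusted p of 0.0508, not called, at 12 h and 0.0173 at 24 h. The other 2 Smurf2 probe sets did not follow: among all probe sets their 12 h effects were 0.13 ± 0.16 and 0.07 ± 0.22 and their 24 h effects 0.37 ± 0.16 and 0.01 ± 0.22, with adjusted p from 0.175 to 0.982. With the mean of the 3 probe sets Smurf2 was at 0.26 with an adjusted p of 0.249 at 12 h and at 0.34 with 0.109 at 24 h, and with arrays scaled to 1 median the 12 h adjusted p was 0.0566. With 1 array left out Smurf2 ran from 0.51 to 0.66 at 12 h and from 0.56 to 0.71 at 24 h and was called in 0 of 6 fits. Its 24 h effect was 0.57 with an adjusted p of 0.159 when the array of 24 h with SP600125 was left out.

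The Smurf2 promoter is shown because, of the RefSeq windows searched, it is the only one of a gene that rose at both times. The stretch is at chr11:106920748-106920965 of GRCm38.p6, minus strand, with the short Smad motif CAGAC on either strand and GGCGCC in capitals.
Smurf2 promoter: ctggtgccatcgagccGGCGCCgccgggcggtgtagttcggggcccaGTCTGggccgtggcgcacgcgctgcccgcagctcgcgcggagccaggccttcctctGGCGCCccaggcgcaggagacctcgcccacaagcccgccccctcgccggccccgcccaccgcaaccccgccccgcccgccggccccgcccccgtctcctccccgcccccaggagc
The printed stretch holds 3 matches, GGCGCC at 234 and 147 bases before the start and CAGAC on the opposite strand at 203 bases before it. That start is the one the window is set on, and the annotated gene begins upstream of it, at base 106920747. CAGAC is in 49.6% of windows and the TGIF core TGTCA in 45.4%, so a match to either is common. RefSeq windows were searched for 6 of the 10 members, namely Smad6, Ski, Tgif1, Tgif2, Smurf1 and Smurf2, and the Tgif2 window had 0 matches to the 6 motifs. No window was searched for Smad7, Skil, Ldlrad4 or Pmepa1, so nothing is said of their promoters.

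Smurf1 read 188.9, 166.0 and 157.1 without the drug and 196.5, 117.0 and 237.4 with it, while its other probe set never reached the floor. Its lowest and highest values were both in the drug arm, and the 24 h value with SP600125 was 2.03-fold the 12 h one, in a pair where 1.96% of genes tested were 2-fold higher or more and 1.28% lower. With arrays scaled to 1 median it no longer reached 2-fold. From 12 h to 24 h without the drug 0 members did, against 1.63% of genes higher and 0.818% lower. No effect of TGF-β on Smurf1 passed, with −0.47 ± 0.31 at 12 h and 0.00 ± 0.31 at 24 h, and without the array of 24 h with SP600125 the 24 h value was −0.41 ± 0.33 with a limma adjusted p of 0.529.

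Ldlrad4, which holds Smad2 and Smad3 away from the receptor at the membrane, read 104.1, 419.6 and 582.6 at 0 h, 12 h and 24 h without the drug and 119.0, 370.7 and 248.2 with it. The 4 stimulated values lay above both unstimulated ones, with the lowest of them in cells with 24 h of both agents. It rose by 1.83 ± 0.35 at 12 h and 1.77 ± 0.35 at 24 h, effects of 3.54-fold and 3.42-fold with limma Benjamini-Hochberg adjusted p of 0.029 and 0.0141, higher in 2 of 2 pairs. Its standard error was the largest of the 9 members, and its 24 h arrays differed by 2.35-fold between DMSO and SP600125. Without the array of 24 h with SP600125 its 24 h effect was 2.39 ± 0.31 with an adjusted p of 0.135, and with 1 array left out it ran from 1.38 to 2.27 at 12 h and from 1.15 to 2.39 at 24 h and was called in 0 of 6 fits at either time. Another Ldlrad4 probe set read 73.8, 106.6 and 142.3 without the drug and was under the floor in all 3 drug arrays at 48.5, 63.9 and 73.7. Fitted among all probe sets, it was at 0.26 ± 0.27 at 12 h and 0.47 ± 0.27 at 24 h, with limma adjusted p of 0.664 and 0.294. The remaining 2 never reached the floor. Averaged over its 4 probe sets, Ldlrad4 was at 0.52 and 0.56 with adjusted p of 0.206 and 0.12.

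Pmepa1, a membrane protein that sequesters Smad2 and Smad3 and is a strong TGF-β target in many epithelial cells, had 3 probe sets at the edge of measurement. The brightest read 77.8, 78.9 and 47.3 without the drug and 38.2, 74.3 and 58.1 with it, which is within 5 units of the floor where it passed it, and the effects of 0.01 and −0.03 at 12 h and 24 h on the floored scale say nothing of a change. Of its other probe sets 1 was above the floor on a single array, at 80.8 with SP600125 alone, and the third never was.

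**Figure D2:**
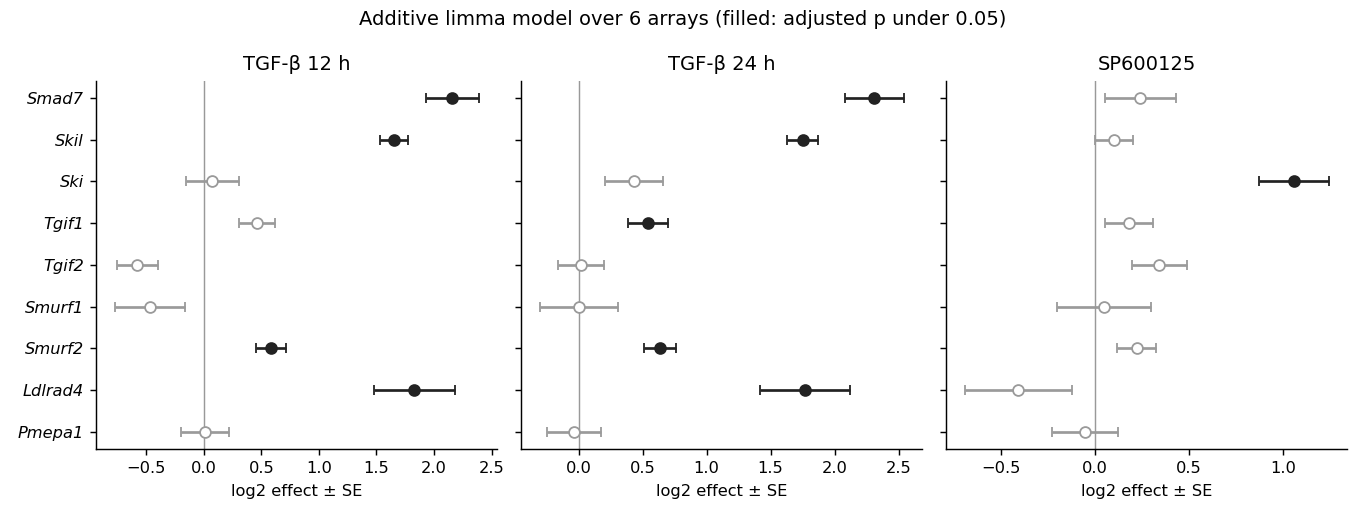
Log2 effects with standard errors from the additive limma model over 6 arrays for the 9 members tested, at 12 h and 24 h of TGF-β and for SP600125. Filled points passed an adjusted p of 0.05: Smad7, Skil, Smurf2 and Ldlrad4 at both times, Tgif1 at 24 h, and Ski for SP600125 at 1.06.

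Between 24 h and 12 h of TGF-β limma called 0 of 9 members, and 1, Tgif2, had an unadjusted p under 0.05. Of all 11731 genes 2, or 0.017%, were called higher at 24 h and 0.0% lower, with 1797 at an unadjusted p under 0.05. The contrast was 0.14 ± 0.23 for Smad7, 0.09 ± 0.12 for Skil, 0.05 ± 0.13 for Smurf2 and −0.05 ± 0.35 for Ldlrad4. None of these 4 passed. Ldlrad4 was 1.39-fold higher at 24 h without the drug and 1.49-fold lower with it.

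By the series' own rule, a rise of over 2-fold, Smad7, Skil and Ldlrad4 were induced, 3 of the 10 members, and passed it in each of the 4 pairs of a stimulated with an unstimulated array. At least 2-fold higher were 3.26% of genes tested at 12 h and 5.51% at 24 h without the drug, and 2.47% and 4.59% with it. At least 2-fold lower were 0 members in all 4 pairs, against 1.44% and 1.91% of genes without and 1.3% and 2.02% with the drug. Smad7 was higher by 3.92-fold and 4.25-fold without the drug and by 5.11-fold and 5.75-fold with it. Its increase in signal was 37.8% larger with SP600125 at 12 h and 43.3% larger at 24 h, so it did not meet the design's rule of an induction reduced by more than 75%. On the other Smad7 probe set, with the floor in place of its unstimulated signals, the 24 h increase was 9.51% smaller. The Skil increase was 22.4% smaller at 12 h and 14.8% larger at 24 h, and on the other Skil probe set 33.5% and 3.52% smaller, so the probe sets differ in direction at 24 h for both genes. All these 24 h values use the array with the 18S signal of 5878, and the 12 h ones do not.

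Ldlrad4 came nearest to that rule. It was 4.03-fold higher at 12 h and 5.60-fold at 24 h without the drug, against 3.12-fold and 2.09-fold with it, and its increase was 20.2% smaller at 12 h and 73.0% smaller at 24 h, just short of 75. The 24 h value rests on the array with the 18S signal of 5878, and the part of that array's state in it was not tested. After median or quantile scaling Ldlrad4 no longer reached 2-fold in the 24 h pair with the drug. With the mean of its probe sets it reached 2-fold in none of the 4 TGF-β pairs. Another Ldlrad4 probe set was 1.44-fold higher at 12 h and 1.92-fold at 24 h without the drug, its unstimulated signal raised to the floor. On every array with the drug that probe set was under the floor, so no change can be read there.

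Whether SP600125 changed the TGF-β response was tested by a limma interaction term, with both TGF-β times pooled into a single stimulated state. The error in that model comes from the difference between the 12 h and 24 h arrays of each arm, not from replicates. A true change with time is thus counted as error, and with SP600125 these arrays also differ in time with the drug. The interaction term called 0 of the 9 members and 0.0% of all genes after Benjamini-Hochberg adjustment. At an unadjusted p under 0.05 there were 0 members and 315 genes. The interaction was −0.90 for Ldlrad4 with a 95% interval of −2.33 to 0.54, 0.41 for Smad7 with −0.54 to 1.36, −0.23 for Skil with −0.87 to 0.41, 0.15 for Smurf2 with −0.45 to 0.75, and 0.16 for Ski with −1.05 to 1.37. All 5 intervals hold 0 and reach well to either side of it, so they do not show that the drug left these responses alone. Without the array of 24 h with SP600125 the interaction was −0.61 ± 0.51 for Ldlrad4, 0.32 ± 0.28 for Smad7 and −0.37 ± 0.14 for Skil, with adjusted p from 0.861 to 0.905. In the same model the TGF-β effect without the drug was 2.03 ± 0.26 for Smad7, 1.81 ± 0.17 for Skil and 2.25 ± 0.39 for Ldlrad4, and with it 2.44 ± 0.26, 1.58 ± 0.17 and 1.35 ± 0.39. For neither effect did this limma model call a member or any gene (0 of 11731), with 4 members at an unadjusted p under 0.05 for each and 1651 and 1216 genes.

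**Figure D3:**
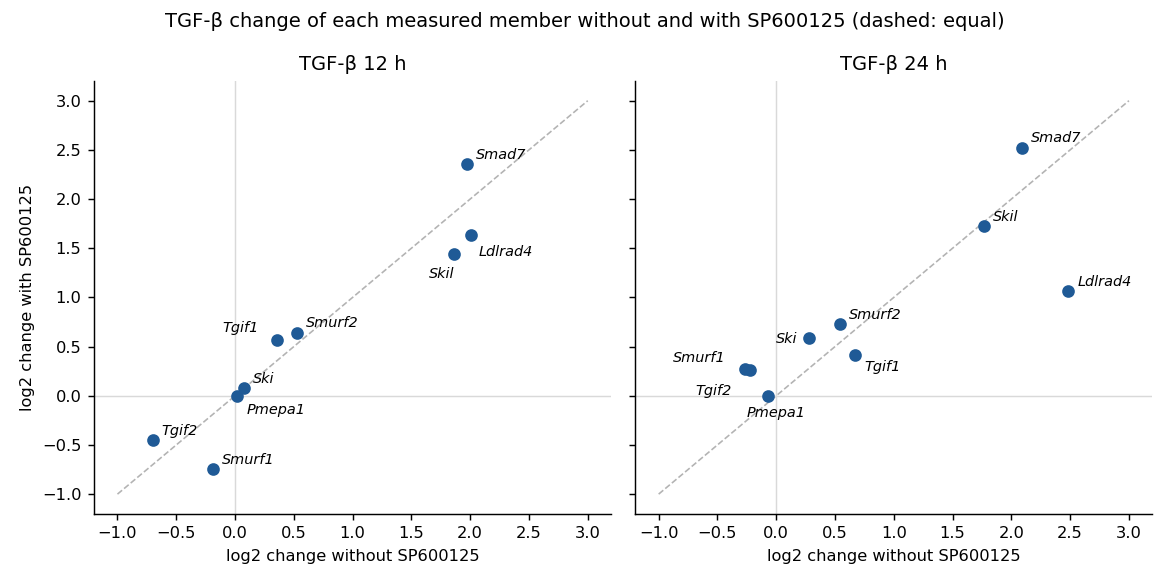
Log2 change of each of the 9 measured members with TGF-β, each arm set against its own unstimulated array, without SP600125 on the horizontal and with it on the vertical axis, at 12 h and 24 h, with 1 pair of arrays per value. Farthest from the dashed line of equal change is Ldlrad4 at 24 h, at 2.48 without and 1.06 with the drug.

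In the 3 pairs of SP600125 with DMSO, 0 members differed by 2-fold or more at 0 h, where 3.15% of genes were higher and 1.29% lower by that much, or at 12 h, where 1.8% and 1.13% were. At 24 h Ski was 2.41-fold higher and Ldlrad4 2.35-fold lower, in a pair where 3.16% of genes passed that fold upward and 1.99% downward. Apart from Ski the drug effects ran from −0.41 ± 0.29 for Ldlrad4 to 0.34 ± 0.15 for Tgif2, whose limma adjusted p was 0.201. Without the array of 24 h with SP600125, the Ldlrad4 drug effect was 0.01 ± 0.23, against −0.41 ± 0.29 with it.

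**Figure D4:**
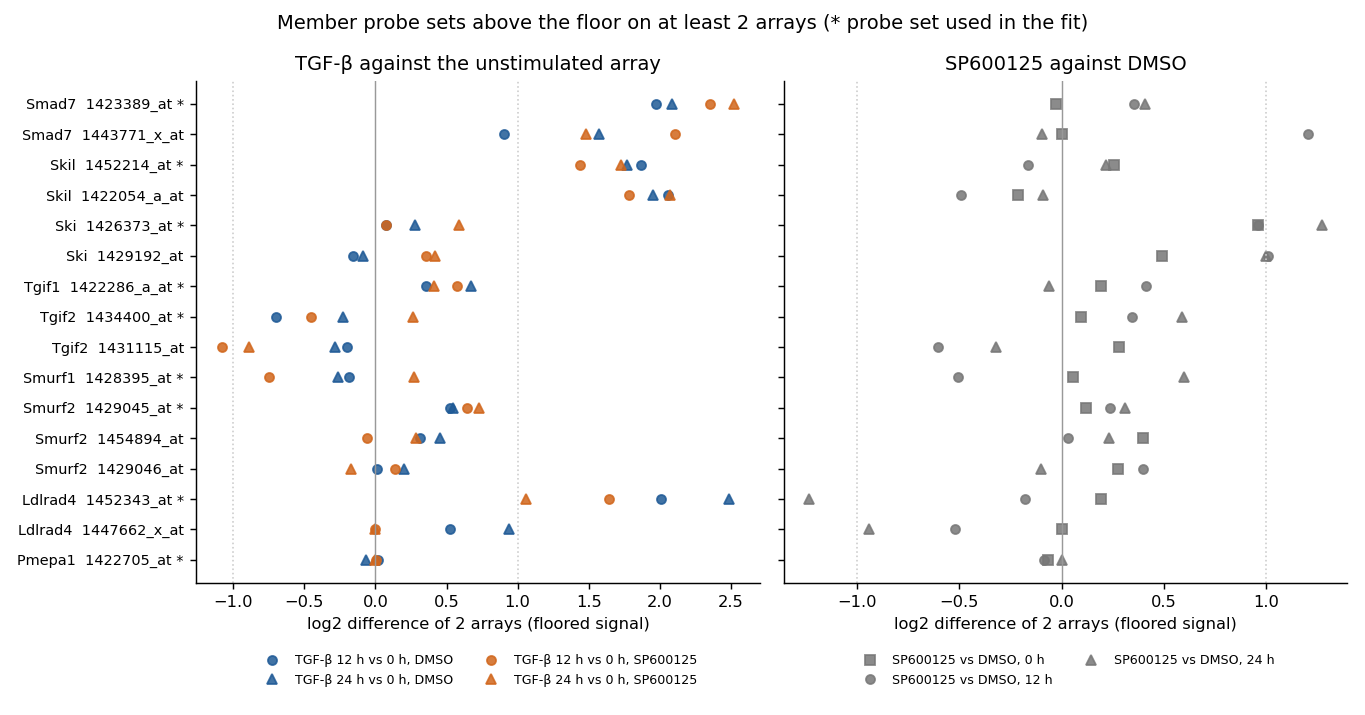
Log2 differences between pairs of arrays for the 16 member probe sets above the floor on at least 2 arrays, with TGF-β against the unstimulated array on the left (blue DMSO, orange SP600125, circles 12 h, triangles 24 h) and SP600125 against DMSO on the right. Both Smad7 and both Skil probe sets lie to the right in all 4 TGF-β pairs, while the Smurf2 and Tgif2 probe sets do not move alike.

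The genes whose signal over the 6 arrays was most like that of Smad7 were Sema4b with a Pearson r of 0.998, Secisbp2l with 0.996, Gsap with 0.994, Ccdc3 with 0.993 and Rgs2 with 0.992, out of 3168 genes with a range of at least 1 log2 unit. For Skil they were Mgat4a with 0.9996, Cetn4 with 0.994, Pck1 with 0.993, Tmem64 with 0.990 and Rgs2 with 0.989. These are descriptions over 6 arrays, 4 of which had TGF-β, so any gene that is high with TGF-β and level otherwise scores close to 1. Rgs2, whose product damps G protein signalling, stood in both lists and read 262.1, 1783 and 2111 without the drug and 238.8, 1834 and 2361 with it. Among the members themselves r was 0.983 between Smad7 and Skil, 0.968 between Smad7 and Smurf2 and 0.858 between Smad7 and Ldlrad4, but 0.335 between Smad7 and Ski.

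The wider pathway was read from 6 lists of genes. Of 11 measured ligands and receptors limma called 3 higher at 12 h, 5 at 24 h and 0 lower, with median effects of 0.32 and 0.51 beside 0.02 and 0.07 over all genes tested. The shares of all genes to read such counts against are the 2.6% higher and 2.37% lower at 12 h and the 9.07% and 7.5% at 24 h given above. Tgfbr1, the type I receptor that Smad7 blocks, rose by 1.65 ± 0.33 and 2.17 ± 0.33, although its other 2 probe sets did not pass, and Tgfbr2 by 0.90 ± 0.18 and 1.10 ± 0.18, where its other probe set was called at 12 h but was at 0.21 with an adjusted p of 0.625 at 24 h. Tgfb1, a ligand, rose by 0.69 ± 0.17 at 24 h, with its other probe set at 0.27 and not called. Of 29 Smad target genes 8 rose and 1 fell at 12 h, and by 24 h those counts were 11 and 1, with medians of 0.34 and 0.71 and Id3, an inhibitor of E proteins, at 1.88 ± 0.16 and 2.01 ± 0.16.

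The partners of the corepressors and the proteins that control Smad turnover were read in the same way. Of 13 corepressor partners 1 rose and 1 fell at each time, with medians of −0.11 and 0.01: Hdac1, a histone deacetylase of the corepressor complexes, rose by 0.56 ± 0.10 and 0.38 ± 0.10, and Prmt5, an arginine methyltransferase, was at −0.78 ± 0.10 and −0.81 ± 0.10. Of 20 genes of Smad and Ski turnover 0 were called at 12 h, and at 24 h 2 rose and 2 fell, with medians of 0.03 and −0.09, among them Nedd4l, a ligase related to the Smurfs, which rose by 1.29 ± 0.25. These turnover counts at 24 h, and those of the corepressor partners at 24 h, are near the 9.07% and 7.5% of all genes. Of 13 further pathway inhibitors 1 rose and 1 fell at 12 h, while 5 rose at 24 h with 0 lower, and the medians were 0.13 and 0.36. Tob1, an antiproliferative protein that binds Smads, rose by 0.80 ± 0.15 and 0.93 ± 0.15, Vasn, a membrane protein that binds TGF-β, by 2.09 ± 0.24 at 24 h, and Strap, which holds Smad7 at the receptor, was at −0.50 ± 0.10 at 12 h. The other Vasn probe set was at 0.995 with an adjusted p of 0.0774, and the other 2 of Strap were at −0.29 and −0.12 with 0.243 and 0.824, so these did not pass. Of 11 Smads and adaptors 1 rose at 12 h and 2 at 24 h, with medians of −0.03 and 0.13, and those were the coactivator genes Ep300 at 0.79 ± 0.17 and 1.15 ± 0.17 and Crebbp at 0.44 ± 0.10 at 24 h, with 1 of its 3 probe sets not called.

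With SP600125, for which 3.99% of all genes rose and 3.69% fell, each list had at most 2 calls in a direction apart from the Smad targets, and nothing is read from single calls. The drug raised 2 of the 11 Smads and adaptors, Smad4 by 0.58 ± 0.12 and Ep300 by 0.69 ± 0.14, and 1 of 13 corepressor partners, Hipk2, a kinase that binds Ski, by 0.72 ± 0.15, although the other 5 Hipk2 probe sets, at 0.07 to 0.85, were not called, while Hdac1 fell by 0.40 ± 0.08. Of 11 ligands and receptors 1 rose with the drug, Eng, a coreceptor, by 1.04 ± 0.22. Of 13 further inhibitors it raised 2: Ppm1a, a phosphatase of Smad2 and Smad3, by 0.79 ± 0.10, with 4 of its 6 probe sets called, and Ppp1r15a, which brings a phosphatase to the receptor and is also a stress gene, by 1.81 ± 0.17. Of 20 turnover genes 0 rose and 1 fell with the drug, Cops5 at −0.36 ± 0.08. The median drug effects of these 5 lists, in the order given, were 0.28, 0.01, 0.08, 0.17 and 0.08, beside 0.04 over all genes tested.

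Without the array of 24 h with SP600125, limma called none of the 49 effects of pathway genes taken for naming, with adjusted p from 0.124 to 0.367. All 49 had the same sign as with it, and 0 moved by over 1.5 times. Tgfbr1 was then at 2.62 ± 0.52 at 24 h, Vasn at 2.24 ± 0.25 and Nedd4l at 1.47 ± 0.27, and for the drug Ppp1r15a was at 1.66 ± 0.22 and Smad4 at 0.48 ± 0.14.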

How the data were processed

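The deposited values are linear intensities, 1 signal for each probe set and array. The submitters' processing notes name GCOS 1.2, with settings not given in the sources used here. The 2% trimmed mean was 500.0 on all 6 arrays, array medians were 69.3 to 80.9, and the signals were used as deposited. Names came from probe sets with 1 symbol in the platform annotation, 34958 of 45101 (932 had several and 9211 were not listed). Each gene was read from the probe set with its highest mean signal. Signals under 74.2 were set to it before log2, and 11731 genes above it on at least 2 arrays were tested with limma 3.58.1 in R 4.3.3, with an intensity trend in the variance prior, 2 residual degrees of freedom and a prior of 5.97 in the additive model and 2.79 in the TGF-β by SP600125 model. The scripts were tested on simulated data. Named were all members, at most 5 called genes per pathway list and effect (not all are printed), and the 5 genes most like Smad7 and Skil. Members and lists were chosen with earlier results of these data known, so the calls on them are no independent support. No condition was repeated, nothing says the cultures were separate, and the number of arrays limits the precision. Neither detection calls nor images entered the work. Promoter windows (250 bases before to 50 after a start) are from RefSeq, GRCm38.p6; only bases outside the annotated gene, and 30 around the Smad6 start, were printed.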

Additional observations from a re-analysis of the deposited data

How the results depend on the processing

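Arrays scaled to 1 median, quantile normalization, floors at the 25th and 75th percentile (20.3 and 419.8), no filter on dim genes, the mean of a gene's probe sets, every probe set on its own and a variance prior without a trend were tried, and each array was left out. No called member value changed sign under any of these that could be run. Under the other settings 432 member values kept their direction and side of the threshold, 29 lost their call and 22 that were not called changed sign, and with an array left out these were 245, 50 and 29. Skil and Smad7 at 24 h were called under 7 of 8 of the alternative settings, Ski for the drug under 6, Smurf2 at 12 h under 3 and Tgif1 at 24 h under 2. No pairing of replicates was possible because each condition had 1 array and the labels give no replicate numbers. The additive model compared TGF-β times within each drug arm, and the drug within each TGF-β state.

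With no filter the limma calls were 2 genes at 12 h, 3 at 24 h, 4 for 24 h against 12 h and 0 for SP600125, with 2301 at an unadjusted p under 0.05 for the drug, and 0 members in each; the TGF-β by SP600125 model then called 406 genes for the interaction, 221 for TGF-β without drug and 268 with drug, where genes at the floor on most arrays are tested. With the mean of all probe sets 86, 964, 0 and 175 genes were called at 12 h, 24 h, for 24 h against 12 h and for SP600125, and 1 and 2 members at 12 h and 24 h. Without a trend these were 22, 562, 0 and 92 genes and again 1 and 2 members. The contrast of 24 h with 12 h had 0 genes with every probe set on its own, 33 after quantile normalization, 28 with the lower floor and 139 with the higher one; the higher floor, to which lower signals were raised, left 2 members at 12 h and 0 for SP600125, with Smad7 at 0.39 at 12 h and Ski at 0.21 for the drug. Members changed at least 2-fold were 0 for 24 h against 12 h with SP600125 under the mean of probe sets and under median scaling. There was 1 for SP600125 at 24 h under the mean. With the lower floor 1 member, Smad6, was lower at 24 h than at 12 h with DMSO. For SP600125 at 0 h there were then 2, Smad6 higher and Pmepa1 lower. All Smad6 signals were under the main floor of 74.2, and in that pair Pmepa1 passed it only on the DMSO array, at 77.8. The cause of these differences between settings was not tested.

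Median scaling turned the split of risen and fallen genes from 305 and 278 to 228 and 439 at 12 h, from 1064 and 880 to 679 and 1329 at 24 h, and from 468 and 433 to 349 and 681 for SP600125. It moved the median of all genes at 24 h from 0.07 to −0.04.

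Leaving out 1 array left 0 to 44 genes and 0 to 1 members called at 12 h, 0 to 338 and 0 to 2 at 24 h, and 0 to 103 and 0 to 0 for SP600125, with 1 residual degree of freedom, the lone array of a state being assumed to vary like the others. Without the untreated array Skil was called at 12 h and Skil and Smad7 at 24 h, and likewise without the drug-alone array. Without either 12 h array only the 24 h calls of Skil and Smad7 were left, and without either 24 h array none. Over these fits Smad7 stayed at 2.10 to 2.51 at 24 h, Skil at 1.63 to 1.86 and Ldlrad4 at 1.15 to 2.39. The contrast of 24 h with 12 h had 0 genes in each, and the TGF-β by SP600125 model 0 in each of the 4 fits that could be run.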

Other observations

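Genes that stop the cell cycle were among those called for the drug in the list of 29 Smad targets. Of these targets 4 rose and 2 fell with SP600125 (median 0.00, against 0.04 over all genes tested, of which 3.99% rose and 3.69% fell). In limma with Benjamini-Hochberg adjustment, the cyclin-dependent kinase inhibitor genes Cdkn1a and Cdkn1b rose by 1.38 ± 0.26 (SE) and 0.97 ± 0.15 with adjusted p of 0.0181 and 0.0114. Cdkn2b, which encodes p15, was at −0.91 ± 0.15 with an adjusted p of 0.0124. Klf11, a transcription factor of the TGF-β early response, rose with the drug by 0.84 ± 0.20 with an adjusted p of 0.0433. It was not called for the drug when fitted among all probe sets, with a limma adjusted p of 0.0541. Inpp5d, the SHIP phosphatase, was at −0.74 ± 0.11 for the drug. Fitted among all probe sets, Cdkn1b and Cdkn2b also rose with TGF-β at both times, while Cdkn1a and Klf11 were not called for it at either time. Among targets called for TGF-β, Id2, an inhibitor of E proteins, had effects of 2.89 ± 0.20 and 2.93 ± 0.20 at 12 h and 24 h. Bmf, a pro-apoptotic Bcl-2 family gene, was at 1.96 ± 0.26 at 24 h, but its other probe set was at −0.42 and not called, and 1 of 3 Id2 probe sets was not called at either time. When the array of 24 h with SP600125 was left out these genes kept their signs and none was called, with the drug effect at 1.03 ± 0.22 for Cdkn1b and −1.04 ± 0.14 for Cdkn2b, and Bmf at 2.44 ± 0.24 at 24 h.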
